A study of Mus musculus with 18 samples.

Results

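The interleukin 1 family of cytokines and receptors was followed in type II cells, the surfactant-producing epithelium of the alveolus, from mice aged 7 to 8 weeks. The 10 genes Il33, Il1f9, Il1a, Il1b, Il18, Il1rn, Il1r1, Il1r2, Il1rl1 and Il1rap were chosen by name as members of the family, and 8 of them had a row with a single gene symbol among the 19938 genes measured. Il1r1 and Il1rl1 had none and were not analysed here. A gene with several rows was to be represented by the row with the highest mean over the 18 arrays, but each of the 8 genes had 1 row. The genes were selected with earlier results on these arrays in view, in which Il33, Il1f9 and Il1b already differed between genotypes, so their p-values below describe these arrays and are not independent evidence.

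Total RNA was hybridized to 18 arrays in 6 groups of 3. All groups carried floxed Cebpa. The Cebpa-deleted mice (genotype CCSP/rtTA/CEBPa(flx/flx) in the labels, Cebpa delta/delta in the design) had lost Cebpa, which encodes the transcription factor C/EBPα, conditionally, in Clara cells early in gestation and in type II cells near term; CCSP is the Clara cell secretory protein, an airway secretory cell product. The controls were flx/flx littermates in which either rtTA or Cre was missing. Cells of each genotype were taken at 0, 2 and 24 h of hyperoxia according to the titles and the design, although the description of every sample says air. The labels do not say that arrays came from separate animals, so p-values measure only the spread between arrays, which may in part be technical. With 3 arrays in each group the precision is limited.

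Ligands of this family are made by epithelial, myeloid and other cells and signal infection or damage. IL-1α, IL-1β, IL-33, IL-36γ (the product of Il1f9) and IL-18 bind receptors whose intracellular domains recruit MyD88 and IRAK kinases and activate NF-κB. Il1rap encodes the co-receptor shared by the receptors for IL-1, IL-33 and IL-36, Il1rn encodes the antagonist that occupies the IL-1 receptor, and Il1r2 encodes a decoy receptor without a signalling domain. IL-33 is stored in the nucleus, is released by damaged cells, and in the mouse lung is made largely by type II cells. IL-1β and IL-18 are made as precursors that caspase-1 cuts in inflammasomes.

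Facts of the whole series bear on every value. Cebpa was lower in Cebpa-deleted cells by 1.10 at 2 h and 1.83 at 24 h on the log2 scale, with a value of -0.43 at 0 h that did not pass. The interquartile range of an array, taken over its genes, was 2.89 to 3.06 at 0 h and 2.13 to 2.55 at 2 h; at 24 h it was 2.44 to 2.52 in controls and 1.82 to 2.13 after deletion. The lowest value of an array was 2.18 to 2.30 at 0 h and 2.74 to 2.89 later, and the highest 14.53 to 14.62 at 0 h and 13.70 to 13.88 later. All levels are RMA expression on the log2 scale, all differences are Cebpa-deleted minus control or later minus earlier, and a gene was called where limma's p was below 0.05 after Benjamini-Hochberg adjustment across the 19938 genes. The labelled cell type was checked with 11 type II cell markers, whose mean level was 12.89 to 13.04 at 0 h in both genotypes and 11.35 to 11.72 in Cebpa-deleted cells at 24 h, the lowest group. Airway secretory markers were measured too. At 0 h the mean level of 6 of them was 10.80 to 11.64 in controls and 11.19 to 11.59 in Cebpa-deleted cells. In bulk RNA, fewer cells of a type and less RNA per cell cannot be told apart.

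Il33 and Il1f9 were the 2 ligands that were lower in Cebpa-deleted cells at both 2 and 24 h. RefSeq sequences around their start sites are printed for these 2 ligands, picked because they were called in these same arrays. Each window (build GRCm38.p6, + strand) runs from 250 bases before the start to 50 after it. Of the 2 Il33 windows only the one that holds a match is printed. The second of the 2 Il33 windows is at chr19:29945540-29945839 and the Il1f9 window at chr2:24186226-24186525. Capitals mark a match to TTGCNNAA, a simple form of the C/EBP motif, searched on both strands.

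Il33: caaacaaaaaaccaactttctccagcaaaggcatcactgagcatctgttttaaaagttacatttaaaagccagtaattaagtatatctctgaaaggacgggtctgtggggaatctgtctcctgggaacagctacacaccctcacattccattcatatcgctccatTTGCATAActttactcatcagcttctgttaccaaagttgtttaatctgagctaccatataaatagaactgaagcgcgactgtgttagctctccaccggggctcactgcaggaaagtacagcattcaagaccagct

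Il1f9: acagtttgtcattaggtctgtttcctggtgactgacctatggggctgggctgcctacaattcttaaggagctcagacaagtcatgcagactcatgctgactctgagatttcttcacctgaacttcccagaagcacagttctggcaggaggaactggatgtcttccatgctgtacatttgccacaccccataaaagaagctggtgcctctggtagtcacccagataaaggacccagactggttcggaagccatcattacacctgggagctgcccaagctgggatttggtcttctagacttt

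The match in the Il33 window, TTGCATAA, begins at position -85 relative to the start. The first Il33 window and the Il1f9 window held no match. Over the 10 members, 3 of 15 windows matched (in Il33, Il1r1 and Il1rl1), while 10.8% of 32851 windows of the same length over all genes did. An NF-κB-like motif (GGG, any 2 bases, then TTTCC, on either strand), with no overlap with these matches, occurred in 2 of the 15 windows, both of Il1rn and sharing most of their bases, and in 1.63% of all windows. A match describes letters only.

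Il1f9 was the member whose genotypes were separated on all arrays. At 0 h it was 6.93, 7.66 and 7.09 in controls against 5.70, 6.35 and 6.59 after deletion. At 2 h it was 6.93, 6.86 and 6.90 in controls against 5.66, 5.58 and 5.56. At 24 h it was 7.24, 6.93 and 7.90 in controls against 5.98, 6.16 and 6.10. The 9 control arrays lay between 6.86 and 7.90 and the 9 Cebpa-deleted arrays between 5.56 and 6.59, so no Cebpa-deleted array at any time reached a control array. The share of all genes that separated in this way is not given here. The same holds for every comparison below that is described as without overlap, so such separation describes the member's arrays alone.

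The Il1f9 difference was -1.01 at 0 h (SE 0.22, 95% interval -1.48 to -0.54, adjusted p = 0.0343), or 49.6% of controls. At 2 h it was -1.30 (SE 0.22, 95% interval -1.77 to -0.83, adjusted p = 0.00684), or 40.7%, and at 24 h -1.27 (SE 0.22, 95% interval -1.74 to -0.80, adjusted p = 0.000498), or 41.4%. The differences at 2 and 24 h did not differ detectably from that at 0 h (-0.29, 95% interval -0.95 to 0.38, adjusted p = 0.959, and -0.26, 95% interval -0.92 to 0.40, adjusted p = 0.559). The 0 h call was lost without control replicate 2 or 3 or Cebpa-deleted replicate 1 or 2 of that time and without Cebpa-deleted replicate 1 of 24 h, with differences between -1.20 and -0.75 when any array was left out. After a second quantile normalization it was -0.85 and not called (adjusted p = 0.17). The 2 h call was lost only without Cebpa-deleted replicate 3 of 2 h (adjusted p up to 0.0551 over the fits without an array), and the 24 h call held in all 18 such fits.

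Il33 was 12.10, 11.96 and 11.96 in controls and 11.84, 11.74 and 11.59 in Cebpa-deleted cells at 0 h. These ranges did not overlap, but the difference of -0.28 (SE 0.23, 95% interval -0.78 to 0.21, adjusted p = 0.821) did not pass. At 2 h the levels were 11.17, 11.44 and 11.93 in controls against 11.17, 10.25 and 10.14 in Cebpa-deleted cells. Here the highest Cebpa-deleted array, replicate 2, lay only just below the lowest control array.

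The Il33 difference at 2 h was -0.99 (SE 0.23, 95% interval -1.49 to -0.50, adjusted p = 0.0403). It held in 7 of 18 fits made without 1 array, with adjusted p = 0.000713 without Cebpa-deleted replicate 2 of 2 h (-1.32) and adjusted p = 0.244 without Cebpa-deleted replicate 3 of 2 h (-0.86). The other arrays of 2 h without which it was lost were control replicate 2 (-1.03), control replicate 3 (-0.79) and Cebpa-deleted replicate 4 (-0.80). Without any of the 3 control or Cebpa-deleted replicates 1 and 2 of 0 h, control replicate 2 of 24 h or Cebpa-deleted replicate 1 of 24 h the difference was the same and the adjusted p lay just above the threshold. When the fit held only the 6 arrays of 2 h the adjusted p was 0.326.

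At 24 h Il33 was 10.25, 10.15 and 9.76 in controls and 8.57, 8.46 and 9.16 in Cebpa-deleted cells, which did not overlap. The difference was -1.32 (SE 0.23, 95% interval -1.81 to -0.83, adjusted p = 0.000544) and was called in all 18 fits without an array. It was lower than the 0 h difference by 1.04 (SE 0.33, adjusted p = 0.0459 for the interaction), against a background of 14.3% of genes called in that interaction. This call was kept only without control replicate 1 or 3 or Cebpa-deleted replicate 2 or 4 of 2 h or Cebpa-deleted replicate 4 of 24 h, and after quantile normalization the value was -0.73 (adjusted p = 0.133). From 2 to 24 h the genotype difference of Il33 moved by -0.33 (95% interval -1.02 to 0.37, adjusted p = 0.443), in a comparison where 30.8% of genes were called.

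**Figure D1:**
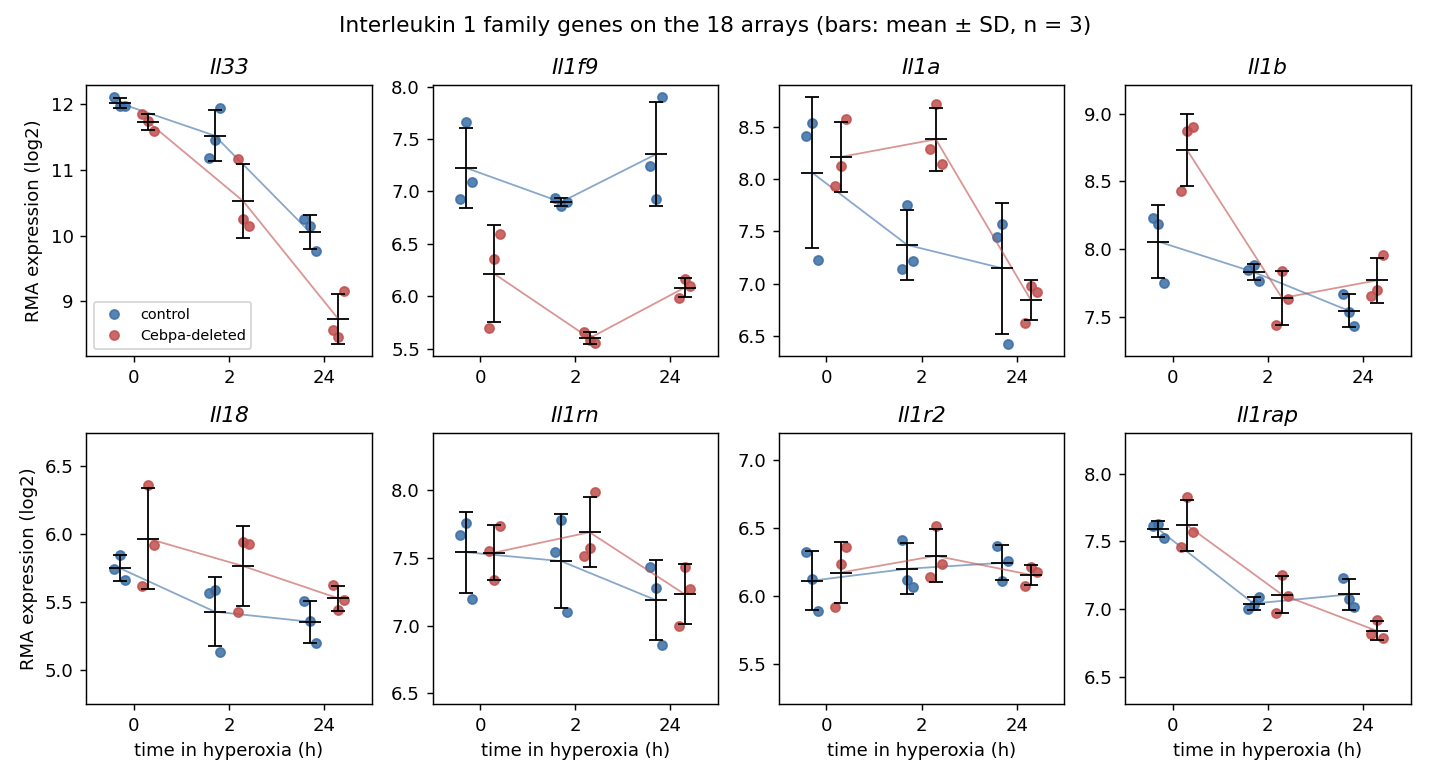
RMA expression (log2) of the 8 measured members on each array at 0, 2 and 24 h, drawn at equal spacing, with control arrays in blue, Cebpa-deleted arrays in red and bars for the mean ± SD (n = 3) and lines joining the means. The Il1f9 points of the genotypes stay apart at every time, Il33 falls with time in both genotypes, and each panel has its own axis.

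The level of Il33 went with the range of values of its array. Over the 18 arrays its Pearson correlation with the interquartile range was 0.80, and 0.85 after the mean of each group was subtracted; for Il1f9 the values were 0.30 and 0.09. Arrays of a group share the time and genotype, and 30.1% of all genes had a correlation above 0.8 over the 18 arrays. The share of all genes for the value after subtraction of the group means is not given here. Genes with a mean level within 0.25 of that of Il33 had a median genotype difference of 0.01 at 2 h and -0.31 at 24 h, where Il33 had -0.99 and -1.32. For genes as close to Il1f9 the medians were -0.02 and 0.23, where Il1f9 had -1.30 and -1.27.

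With the interquartile range as a covariate the 2 h difference of Il33 was -1.24 (adjusted p = 0.000648) and that of Il1f9 -1.32 (adjusted p = 0.00403). With the same covariate the 24 h difference of Il33 was -0.10 (adjusted p = 0.97) and that of Il1f9 -1.15 (SE 0.41, adjusted p = 0.457). Only 4 genes of all were called at 24 h in that fit; the narrow range and the genotype coincide at 24 h and cannot be told apart.

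**Figure D2:**
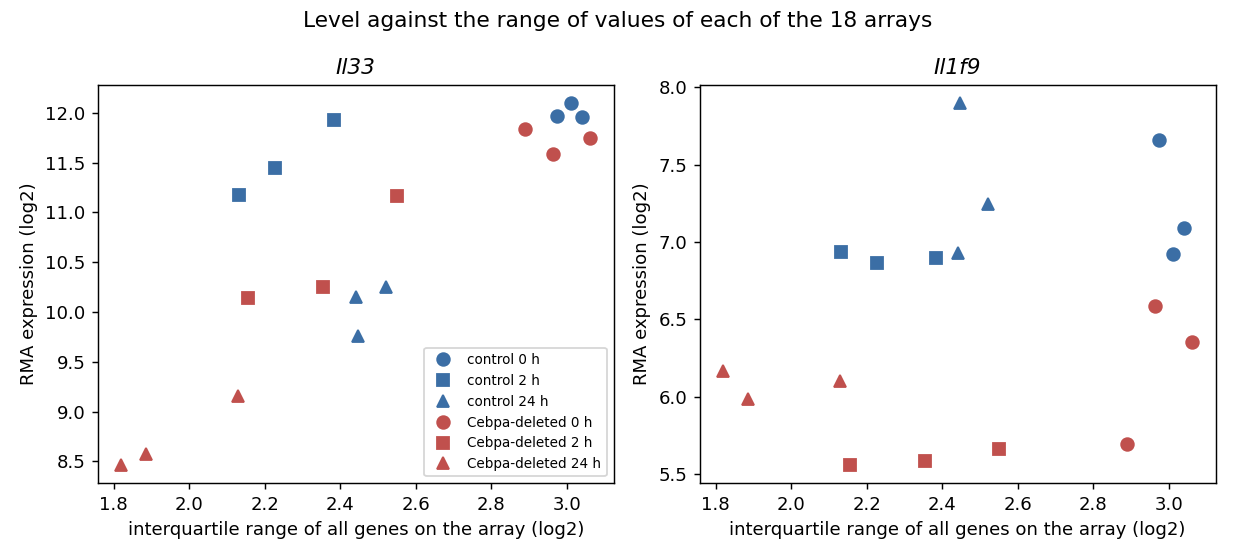
Level of Il33 and Il1f9 (log2) on each of the 18 arrays against the interquartile range of all genes on that array (log2), with colours for genotype and symbols for time. Il33 spans 8.46 to 12.10 and tends to be lower on arrays with a narrower range. Between 2 and 24 h the controls go the other way, with a wider range but lower Il33 at 24 h. Il1f9 is lower on the Cebpa-deleted arrays at each time.

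Il1b, which encodes IL-1β, was the only member called higher. At 0 h it was 8.23, 8.19 and 7.75 in controls and 8.43, 8.87 and 8.90 in Cebpa-deleted cells, without overlap. The difference was 0.68 (SE 0.15, 95% interval 0.37 to 0.98, adjusted p = 0.03), a 1.60-fold higher level. It was lost without control replicate 2 or 3 or Cebpa-deleted replicate 2 or 3 of 0 h, with differences between 0.52 and 0.83 over the fits without an array, and after quantile normalization (0.60, adjusted p = 0.118). At 2 h the levels were 7.85, 7.88 and 7.76 against 7.44, 7.84 and 7.63, and at 24 h 7.67, 7.54 and 7.43 against 7.65, 7.70 and 7.96. Both times overlapped, with differences of -0.19 (adjusted p = 0.723) and 0.22 (adjusted p = 0.199). After quantile normalization the 24 h difference was 0.40 and called (adjusted p = 0.0294). The change of the difference from 0 to 2 h was -0.87 (unadjusted p = 0.000495, adjusted p = 0.494), and no gene passed in that interaction, where 0% were called with limma and 1279 genes had an unadjusted p below 0.05.

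Markers of other cells differed at 0 h too. Of 12 macrophage markers 1 was called higher, C1qb (median of the list 0.14, range of its mean level 7.07 to 7.53 on control and 7.46 to 7.70 on Cebpa-deleted arrays), and 0 of 10 neutrophil markers (median 0.09). Of 11 endothelial markers 7 were called higher (median 0.93, 8.05 to 8.36 against 9.06 to 9.33), and at 2 h 10 were (median 1.04, 7.94 to 8.30 against 8.60 to 9.56). Of 9 mast cell and basophil markers 1 was called higher at 0 h (1.01), and the 7 type I cell markers had a median of 0.58 with 0 called. Their part in the Il1b difference was not tested.

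Il1a, the gene of IL-1α, lay higher in Cebpa-deleted cells at 2 h but did not pass. The levels were 7.14, 7.75 and 7.22 in controls and 8.28, 8.72 and 8.14 in Cebpa-deleted cells, without overlap, a difference of 1.01 (SE 0.31, 95% interval 0.36 to 1.66, adjusted p = 0.142). At 0 h Il1a was 8.42, 8.54 and 7.23 against 7.93, 8.13 and 8.58, and at 24 h 7.45, 7.57 and 6.43 against 6.63, 6.98 and 6.92. These overlapped, with differences of 0.15 (adjusted p = 0.965) and -0.30 (adjusted p = 0.413). The genotype difference moved by -1.31 from 2 to 24 h (SE 0.44, adjusted p = 0.0333), a call kept in 10 of the 18 fits without an array. It was lost without control replicate 1 or 3 or Cebpa-deleted replicate 2 or 3 of 2 h and without replicate 1 or 2 of either genotype of 24 h, with values between -1.68 and -1.10. The 12 macrophage markers had a median of 0.54 at 2 h with 0 called, and their mean level lay between 7.03 and 7.53 on control and between 7.33 and 8.07 on Cebpa-deleted arrays; their part in the Il1a values was not tested.

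Il18, which encodes IL-18, differed by 0.22, 0.34 and 0.17 at 0, 2 and 24 h, and none passed (adjusted p = 0.809, 0.495 and 0.397). Its 9 control arrays lay between 5.13 and 5.85 and its 9 Cebpa-deleted arrays between 5.42 and 6.36.

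Among the antagonist and the receptors only Il1rap at 24 h was called. Il1rn, the antagonist, differed by 0.00, 0.21 and 0.04, with 95% intervals of -0.41 to 0.40, -0.19 to 0.62 and -0.36 to 0.45. The decoy receptor Il1r2 differed by 0.06, 0.10 and -0.09, and its 18 values lay between 5.89 and 6.51. Il1rap, the shared co-receptor, differed by 0.03 and 0.07 at 0 and 2 h. At 24 h it was 7.23, 7.07 and 7.02 in controls against 6.81, 6.92 and 6.79, a difference of -0.27 (SE 0.10, adjusted p = 0.0345) that was lost without control replicate 1 or 2 or Cebpa-deleted replicate 1 or 4 of 24 h and with the interquartile range as covariate (-0.25, adjusted p = 0.801). The level of Il1rap correlated with the interquartile range of the arrays at 0.91, and at 0.05 within groups.

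In all, 1 of the 8 members was called higher and 1 lower at 0 h, where 0.858% of all genes were called, and the median difference of the members was 0.04 against 0.00 for all genes. At 2 h 2 were called lower against a background of 1.4%, with medians of 0.08 and -0.02. At 24 h 3 were called lower where 50.7% of genes were called, with medians of -0.18 and 0.05, so that the share of members called was below that of all genes.

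**Figure D3:**
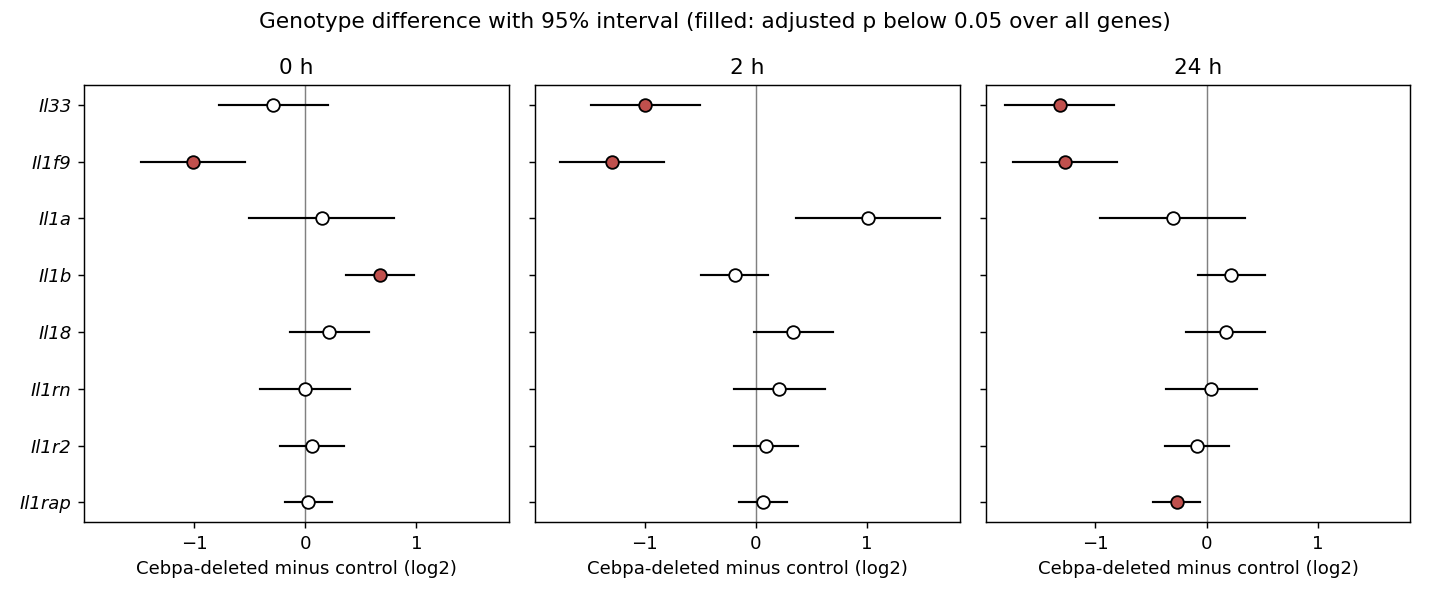
Cebpa-deleted minus control differences (log2) of the 8 members at 0, 2 and 24 h with 95% intervals, filled where the adjusted p was below 0.05. Il1f9 lies below 0 at all 3 times, Il33 is called at 2 and 24 h, and Il1b lies above 0 at 0 h alone among its 3 intervals.

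Over time Il33 fell in both genotypes. From 2 to 24 h, between arrays of like lowest and highest values, it changed by -1.46 in controls (SE 0.23, adjusted p = 0.000457) and by -1.79 in Cebpa-deleted cells (SE 0.23, adjusted p = 0.000159), both without overlap and both called in all 18 fits without an array. With the interquartile range as covariate the change in controls was -1.98 (adjusted p = 3.51e-06). In Cebpa-deleted cells it was then -0.84 and not called (adjusted p = 0.0838). Of 11 type II cell markers 0 were called in controls over these hours (median -0.14) and 10 were lower in Cebpa-deleted cells (median -0.70), and from 0 to 24 h all 11 were lower in both genotypes; their part in the Il33 values was not tested. It was the single member called in controls, where 12.4% of genes were called. In Cebpa-deleted cells Il1a also fell, by 1.54 (SE 0.31, adjusted p = 0.00193), and 31.4% of genes were called. Il1f9 had values of 0.46 and 0.48 in the 2 genotypes over these hours, neither of which passed (adjusted p = 0.186 and 0.104).

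The 6 groups ordered by mean Il33 were control 0 h, 12.01 ± 0.08 (SD, n = 3), Cebpa-deleted 0 h, 11.72 ± 0.13, control 2 h, 11.51 ± 0.38, Cebpa-deleted 2 h, 10.52 ± 0.56, control 24 h, 10.05 ± 0.26, and Cebpa-deleted 24 h, 8.73 ± 0.38. Cebpa-deleted 0 h and control 2 h overlapped, as did Cebpa-deleted 2 h and control 24 h.

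Changes from 0 h compare arrays of different range, and each time may be a batch, so time and range cannot be told apart there. From 0 to 2 h 1 member fell in controls, Il1rap (-0.55, adjusted p = 0.000137), where 70.1% of genes were called. In Cebpa-deleted cells 4 fell, Il33 (-1.20), Il1b (-1.09, adjusted p = 9.85e-06), Il1f9 (-0.61, adjusted p = 0.0233) and Il1rap (-0.51), where 63.1% were. From 0 to 24 h 4 fell in controls, Il33 (-1.95), Il1a (-0.91), Il1b (-0.51) and Il1rap (-0.48), against 59.9% of genes called. In Cebpa-deleted cells 5 fell, Il33 (-2.99, adjusted p = 1.17e-08), Il1a (-1.37), Il1b (-0.96), Il1rap (-0.78) and Il18 (-0.44), against 77.6%.

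Several of these changes from 0 h depended on single arrays or settings. Il1a in controls from 0 to 24 h was not called without control replicate 1 or 2 of 0 h or control replicate 3 of 24 h (-0.55 without the last), after quantile normalization (-0.66) or with only the arrays compared (adjusted p = 0.0707). Il1b over the same hours in controls was -0.22 after quantile normalization and not called (adjusted p = 0.194). Il18 in Cebpa-deleted cells was not called without Cebpa-deleted replicate 2 of 0 h (-0.24) or Cebpa-deleted replicate 2 or 4 of 24 h. Il1f9 in Cebpa-deleted cells from 0 to 2 h was not called without Cebpa-deleted replicate 2 or 3 of 0 h (-0.54 and -0.42) or Cebpa-deleted replicate 3 or 4 of 2 h. With the interquartile range as covariate none of the calls from 0 h named here was kept.

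Other genes of the pathway were taken from 4 lists. At 0 h none of the 53 measured genes was called, and at 2 h 1 was, Il6, the cytokine gene induced by IL-1 (-1.02, SE 0.22, adjusted p = 0.022). With the interquartile range as covariate 7 were called at 2 h, of which 3 induced genes were higher, 3 induced genes lower and 1 inflammasome gene higher. After quantile normalization 2 induced genes were lower at 2 h. The shares of all genes called in these fits are not given here. At 24 h the counts of these lists stand against 50.7% of all genes called, 4852 higher and 5258 lower, with a median of 0.05. Of 18 genes induced by IL-1, 10 were then lower, 2 higher and 6 did not pass, with a median of -0.27. The siderophore-binding Lcn2 was 9.41 against 11.82 (-2.40, SE 0.22, adjusted p = 6.92e-06), Il6 6.64 against 8.63 (-1.98), and the serum amyloid gene Saa3 6.05 against 7.17 (-1.13). The neutrophil chemokine gene Cxcl5 was higher, 9.86 against 8.48 (1.38, SE 0.41, adjusted p = 0.0109).

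Of 15 measured genes between the receptors and NF-κB, 10 were lower and 0 higher at 24 h, with a median of -0.39. Among them were the ubiquitin ligase Traf6 (-0.46), the kinases Irak1 (-0.43) and Irak2 (-0.42) and the adaptor regulator Tollip (-0.42, adjusted p = 0.00134). After a second quantile normalization the median was -0.05, with 1 lower (Irak2) and 1 higher (Ikbkb, a kinase of the NF-κB inhibitor). Of the 18 induced genes 5 were then lower and 2 higher. Lcn2 (-2.12), Il6 (-2.18), Saa3 (-1.44) and Cxcl5 (1.76) passed there too. The share of all genes called after this normalization is not given here.

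Of 10 inflammasome and processing genes 4 were higher and 0 lower at 24 h (median 0.30), a share called below the 50.7% of all genes. They were Casp4, an inflammatory caspase (0.80, SE 0.30, adjusted p = 0.0332), the DNA sensor Aim2 (0.72), Mefv, the pyrin gene (0.52), and Nlrp1b (0.31). Casp1 had a value of 0.31 (adjusted p = 0.151). Of the 10 other family members measured 2 were higher and 1 lower: the IL-18 receptor subunit Il18rap rose by 0.43 (adjusted p = 0.00947) and the binding protein Il18bp by 0.38, while the other receptor subunit, Il18r1, fell by 0.40 (adjusted p = 0.00297). After quantile normalization the inflammasome list had 3 higher, with a median of 0.04, and Il18r1 was not called. With the interquartile range as covariate no gene of the 4 lists was called at 24 h, in the fit that called 4 genes in all.

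Markers of other cells also differed at 24 h, beside the same 50.7% of all genes called. Of 10 lymphocyte markers 9 were called higher (median 0.74; mean level 6.41 to 6.88 on control and 7.27 to 7.64 on Cebpa-deleted arrays), as were 3 of 10 neutrophil markers, 10 of 11 endothelial markers and 6 of 10 fibroblast and smooth muscle markers. Of 9 mast cell and basophil markers 5 were higher and 1 lower, of 12 macrophage markers 2 and 2, and of 6 airway secretory markers 3 were higher (median 0.47). Of 11 type II cell markers 10 were lower (median -0.75), as were 5 of 7 type I cell markers (median -0.83). Their part in the family's values was not tested.

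**Figure D4:**
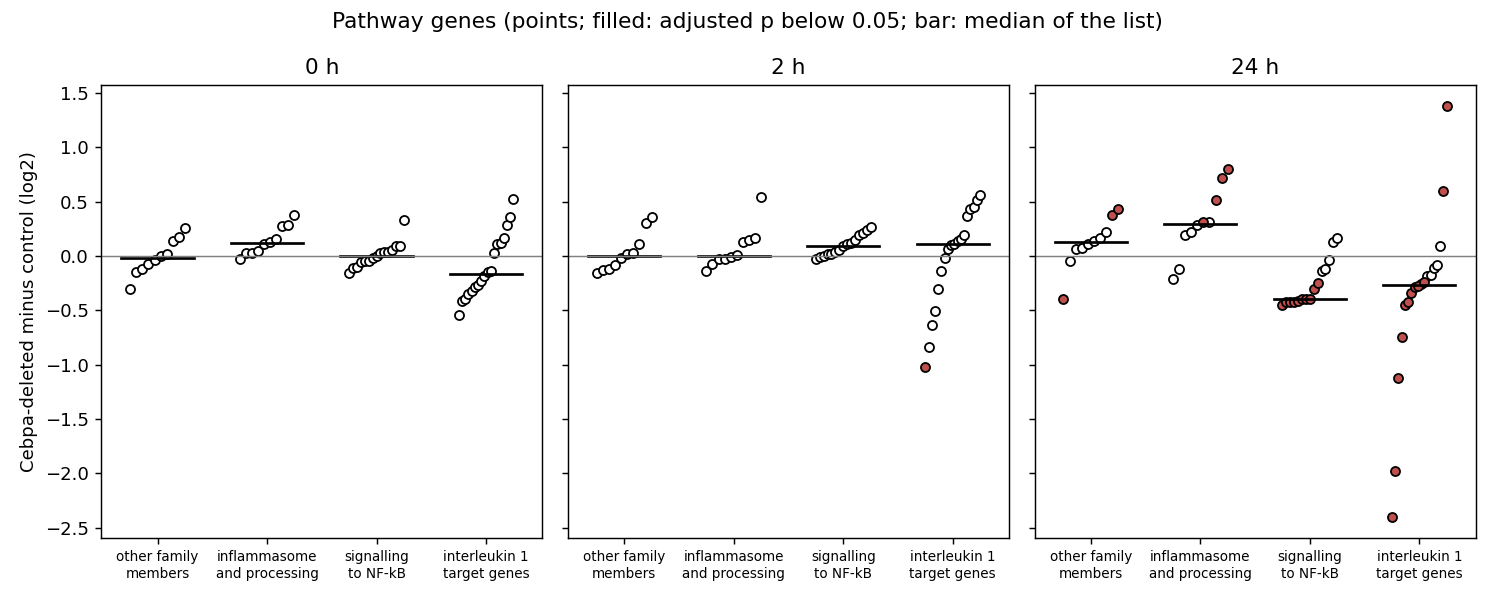
Cebpa-deleted minus control differences (log2) of the measured genes of 4 pathway lists at 0, 2 and 24 h, 1 point per gene in order of size, filled where the adjusted p was below 0.05, with a bar at the list's median. At 24 h the 10 filled points of the signalling list lie below 0 and the induced genes spread from -2.40 to 1.38.

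Genes whose pattern over the 18 arrays was most like that of Il33, among 9668 genes with an SD over the arrays of at least 0.3, were Zdhhc3 (Pearson r = 0.99), a palmitoyltransferase gene, Ggcx (0.99), which encodes the vitamin K dependent carboxylase, Mid1ip1 (0.99), a regulator of fatty acid synthesis, Wdr6 (0.98) and Tmem50b (0.98). For Il1f9 they were Gnmt (0.82), the glycine methyltransferase, Rasd2 (0.80), Bmp2 (0.80), a bone morphogenetic protein, Serpinb8 (0.79) and Ndnf (0.79). The points of these correlations share their arrays, the range of those arrays and the differences between groups, and the values are a description.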

How the data were processed

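The authors hybridized total RNA to 18 arrays. The authors deposited log2 values, and the submitters' processing notes name RMA; its version, the arrays normalized together, the genome build and filters are not given in the sources used here. Features were named from the platform annotation, with symbols updated through Entrez identifiers: 21789 of 35557 had 1 symbol, 1621 several and 12147 none, and the row with the highest mean was used for each of 19938 genes. No values were missing.

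A linear model with a mean per group was fitted to all genes on all 18 arrays with limma 3.58.1 in R 4.3.3 (lmFit, eBayes, default settings), with two-sided p-values and Benjamini-Hochberg adjustment across all genes. The fit was tested on simulated data. Figures used matplotlib 3.10.9. Members, gene lists, tests and the rule for named genes (all members, up to 4 called genes per pathway list and genotype comparison, 5 nearest genes by correlation for Il33 and Il1f9, RIKEN genes passed over) were chosen with earlier results of these data known. Promoters came from RefSeq, where all 10 members matched by symbol, with the motifs chosen after the data were seen. Pathway lists held 57 genes and marker lists 87, of which 53 and 86 were measured. Alternatives were each array left out, a second quantile normalization, median centring, the interquartile range as covariate, only the arrays compared, a replicate block, the mean of a gene's features, the upper 60 percent of genes, eBayes with trend and robust settings and every feature tested alone. Leaving out the 0 h arrays, and the pathway lists under quantile normalization and the covariate, were added after seeing the data.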

Additional observations from a re-analysis of the deposited data

Results flagged for a closer look

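Members are given here where the test of a difference between genotype differences passed. For Il33 the genotype difference was -1.32 at 24 h and -0.28 at 0 h, and their difference was -1.04 (SE 0.33, adjusted p = 0.0459). It was kept in 5 of the 18 fits without an array. For Il1a the genotype difference was -0.30 at 24 h and 1.01 at 2 h, and their difference was -1.31 (SE 0.44, adjusted p = 0.0333), kept in 10 of 18. Groups of 3 arrays are too small for a search for single outlying arrays.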

How the results depend on the processing

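Among the values of single members under 28 alternatives, 2475 kept their side of the threshold, 96 lost their call, 34 gained one and 3 reversed. Direction was compared only where a fit called the value. Values called in neither fit counted as kept whatever their sign. The 3 reversals were of Il33 with the interquartile range as covariate: 1.28 for control cells from 0 to 2 h, 0.24 for Cebpa-deleted cells from 0 to 2 h, and 0.10 for the genotype difference at 24 h minus that at 0 h. The covariate left 0 members called at 24 h, in controls from 0 to 24 h, in Cebpa-deleted cells from 0 to 2, 0 to 24 and 2 to 24 h, and in the interactions of 24 with 0 h and with 2 h. After quantile normalization 0 members were called at 0 h, 4 at 24 h (Il1b added), 2 in controls from 0 to 2 h, 4 in Cebpa-deleted cells from 2 to 24 h, and 0 and 3 in the interactions of 24 with 0 h and with 2 h. With only the arrays compared, 0 members were called at 0 h, 1 at 2 h and 3 in controls from 0 to 2 h. With every feature tested alone the counts were 0 at 0 h, 1 at 2 h and 0 in both interactions with 24 h. With trend and robust settings they were 1 at 2 h and 0 in the interaction of 24 with 0 h, and without the 6 arrays of 0 h, an alternative added after seeing the data, 1 at 2 h. The cause of these changes was not tested. Except for the covariate at 24 h, the shares of all genes called in these alternatives are not given here. The same holds for the replicate block and the fits without 1 array, so these counts describe the members alone.

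Whether replicate numbers pair the arrays could not be decided. Over 7 pairs with the same number the correlation of deviations from the group means was -0.24 to 0.06. Pairs with different numbers ranged more widely, from -0.57 to 0.63 at 2 h, which could hide a pair effect. Arrays of different times were not compared. With a replicate block 1 member was called at 0 h, 1 at 2 h and 0 in the interaction of 24 with 0 h. The block also ended the call of Il1rap at 24 h (-0.26, adjusted p = 0.0943) and added Il1rn in Cebpa-deleted cells from 0 to 24 h (-0.46, adjusted p = 0.0383) and from 2 to 24 h (-0.54, adjusted p = 0.0468).

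Over the fits without 1 array, the members called numbered 0 to 2 at 0 h, 0 to 2 at 2 h and 2 to 3 at 24 h. In controls they numbered 1 to 3 from 0 to 2 h, 3 to 5 from 0 to 24 h and 1 from 2 to 24 h, and in Cebpa-deleted cells 3 to 4, 4 to 5 and 2 to 3. They numbered 0 in the interaction of 2 with 0 h and 0 to 1 in both others. Il18 and Il1r2 fell below the filter that kept the upper 60 percent of genes, so their values lie among the dimmer features. Il1f9 had a mean of 6.56, just above that limit of 6.55. Its group means were 6.90 to 7.36 in controls and 5.60 to 6.21 in Cebpa-deleted cells. It thus passed the filter through its control arrays, and its Cebpa-deleted means lie among the dimmer features. Groups of 3 arrays and 1 feature per member limit all of these values.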

Other observations

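Within groups, Il1a varied with Il1b and Il1rn, Il1b also with Il1r2, Il18 and Il1rap, and Il18 with Il1rap. After the mean of each group was subtracted, the Pearson correlation over the 18 arrays was 0.73 between Il1a and Il1b, 0.67 between Il1a and Il1rn and 0.80 between Il1b and Il1r2. It was 0.69 between Il18 and Il1rap, 0.64 between Il1b and Il18 and 0.61 between Il1b and Il1rap. The lowest value was -0.47, between Il33 and Il18. Il33 had a correlation of 0.12 with Il1a and -0.09 with Il1b, and Il1f9 of -0.07 and 0.27. Such within-group values over all genes are not given here. The genes most like Il1a over the 18 arrays, named after their values were seen, were the C-type lectin receptor genes Clec4n (0.93) and Clec4e (0.91) and the macrophage gene Mpeg1 (0.87), and for Il1b the first was Cyp4f18 (0.91). The arrays share preparation and range, and no test was made.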
